A study of Homo sapiens with 4 samples.

Results

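The genes described here are 8 inhibitors that Wnt signalling induces against itself, namely APCDD1, AXIN2, DKK1, DKK4, NKD1, NOTUM, RNF43 and ZNRF3, together with SP5, a Wnt-induced transcription factor. Their members on the array were the probe sets whose platform annotation gave 1 of these 9 symbols alone, which were 15 of the 54675 probe sets in the table. All 9 genes were found, AXIN2 with 4 probe sets, NKD1 with 3, APCDD1 with 2 and the others with 1 each. RNA came from SW480, an established line from a colon adenocarcinoma (tumour stage given as Duke's type B) that carries a truncated APC. Cells grown in serum-containing medium had been transduced with a construct that either lowered or raised the homeobox transcription factor HOXA5. The groups were 2 arrays of cells with HOXA5 knock down and 2 of HOXA5 overexpressing cells, all of 1 line. No untransduced or vector-only cells were analysed here, so each difference below is overexpressing minus knock-down and cannot be assigned to either manipulation. The sources used here give neither the constructs nor whether replicates were separate cultures, and p-values measure only the spread between these arrays, which may be technical.

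In canonical Wnt signalling a Wnt ligand binds a Frizzled receptor with LRP5 or LRP6, which stops the destruction complex of APC, AXIN1 and kinases from degrading beta-catenin. Beta-catenin then activates target genes through TCF and LEF factors, and among these targets are inhibitors that act at nearly every step of the pathway. In colorectal cells that lack a full-length APC the pathway is active without ligand, and AXIN2, NKD1, NOTUM, RNF43 and ZNRF3 are commonly read as its targets.

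The promoter windows are shown because the members are known as TCF targets and several of them moved together. RefSeq windows (GRCh38.p14, 250 bases before to 50 bases from the transcription start) were held for 4 of the 9 genes, APCDD1, DKK1, SP5 and RNF43, the last with 2 windows. They were not held for AXIN2, DKK4, NKD1, NOTUM and ZNRF3. The TCF/LEF core was searched on both strands as 4 motifs, CTTTGAA with its variants CTTTGAT besides CTTTGTA plus also CTTTGTT, which cannot overlap on 1 strand. Capitals mark the matches in the windows of SP5 (chr2:170715087-170715386, plus strand), DKK1 (chr10:52314031-52314330, plus strand) and APCDD1 (chr18:10454385-10454684, plus strand).
SP5: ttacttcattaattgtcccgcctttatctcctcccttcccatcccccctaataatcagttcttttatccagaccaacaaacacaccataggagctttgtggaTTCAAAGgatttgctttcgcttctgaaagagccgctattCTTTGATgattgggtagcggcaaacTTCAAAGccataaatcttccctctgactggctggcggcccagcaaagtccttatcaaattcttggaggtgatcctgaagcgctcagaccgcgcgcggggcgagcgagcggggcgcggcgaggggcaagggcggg
DKK1: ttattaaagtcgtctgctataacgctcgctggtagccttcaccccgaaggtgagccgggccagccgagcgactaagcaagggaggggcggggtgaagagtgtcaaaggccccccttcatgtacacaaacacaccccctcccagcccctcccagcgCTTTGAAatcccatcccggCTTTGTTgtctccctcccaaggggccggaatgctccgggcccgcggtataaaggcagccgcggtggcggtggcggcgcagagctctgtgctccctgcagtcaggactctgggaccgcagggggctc
APCDD1: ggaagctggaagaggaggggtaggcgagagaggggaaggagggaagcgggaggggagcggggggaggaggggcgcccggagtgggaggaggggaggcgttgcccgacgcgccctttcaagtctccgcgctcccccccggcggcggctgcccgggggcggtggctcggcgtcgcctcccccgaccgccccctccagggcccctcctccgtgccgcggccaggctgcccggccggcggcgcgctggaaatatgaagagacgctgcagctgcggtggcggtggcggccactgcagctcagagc
The SP5 window held 3 matches. These were CTTTGAT from 109 to 103 bases before the start, on the strand of the gene, and CTTTGAA on the opposite strand from 148 to 142 and from 84 to 78 bases before it. The DKK1 window held 2, CTTTGAA from 95 to 89 and CTTTGTT from 76 to 70 bases before the start, both on the strand of the gene. The APCDD1 window, of 76.0% G and C against a median of 58.7% over all windows, held no match, and neither did the 2 windows of RNF43. Of all 35116 windows of the same length, 13.8% held at least 1 match, 1.58% at least 2 and 0.179% at least 3. A match describes the letters of the window and does not show a binding site.

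Values are RMA log2 expression, in which a difference of 1 is a doubling, and array medians lay between 5.77 and 5.81. RMA gives no detection call, so a fold that starts from a low value depends on where the scale bottoms out, and values of different probe sets are not compared as levels. The correlation over all probe sets was 0.997 within either group and 0.991 to 0.993 across groups. No probe set carried the symbol HOXA5 alone in the annotation used here, and probe sets that name several genes were not read for it. The manipulated gene is therefore not reported, and the labels were not checked. Of 12 colon epithelium markers, KRT8 and KRT18 had means of at least 12.9 in both groups, KRT20 read only 2.97 in both, and EPCAM (log2 difference 5.05), KRT19 (4.38, but 0.04 on its weaker probe set) and CDX2 (0.51, adjusted p = 0.025 over genes but 0.060 over all probe sets, and called in no fit without 1 array) rose in the overexpressing arrays. These 3 rises were 25% of the markers, against 2.74% of all genes. The other 9 did not pass in limma, and the median difference of the 12 was 0.05. CDH1 read 5.08 and 4.91 against 5.44 and 5.74, all below the array medians, and narrowly missed (adjusted p = 0.052 over genes). CDH17, CDX1, VIL1, GPA33 and LGALS4 differed by -0.09 to 0.13. None of 7 fibroblast, 5 leukocyte and 4 endothelial markers passed an adjusted p of 0.05 in limma, and 1, 0 and 1 of them had an unadjusted p under 0.05. On the linear scale the summed fibroblast markers were 945 to 985 with knock-down against 1002 to 1012 with overexpression, the leukocyte markers 266 to 269 and 256 to 266, and the endothelial markers 276 to 297 and 289 to 307. PTPRC, which defines leukocytes, had means of 3.79 with knock-down and 3.65 with overexpression. As a measure of RNA quality, the 3' probe set of ACTB exceeded its 5' probe set by 0.30 to 0.46 and that of GAPDH by -0.04 to 0.02, with overlapping groups.

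Of the 15 probe sets, 9 rose in the overexpressing arrays and none fell (limma, adjusted p under 0.05 over all 54613 probe sets that were not controls). These 9 stand for 8 of the 9 genes, all but NOTUM. Of all probe sets tested, 1.36% rose and 0.613% fell. The median difference was 0.90 over the 15 probe sets and -0.02 over all. A called rise of 1 or more was measured for 7 of the 15, against 0.692% of all probe sets tested. Among called rises alone, this was 7 of the 9 member probe sets against 378 of 743 of all probe sets. The groups did not overlap for any of the 15 probe sets, with the overexpressing arrays higher in 13 and lower in 2, but 18.7% of all probe sets were also higher without overlap and 24.5% lower. The study's title describes HOXA5 as an inhibitor of Wnt signalling, whereas the arrays labelled overexpressing had the higher values of these Wnt-induced genes. With 2 arrays a group, an exact two-sided permutation test of a single value cannot go below 0.333, so each call rests on the spread shared across probe sets. Fewer cells with a transcript and less transcript per cell cannot be told apart in RNA from a whole culture. The calls on the 9 probe sets dropped to 4 without knock-down replicate 1, to 2 without overexpressing replicate 1 or without knock-down replicate 2, and to 1 without overexpressing replicate 2.

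**Figure D1:**
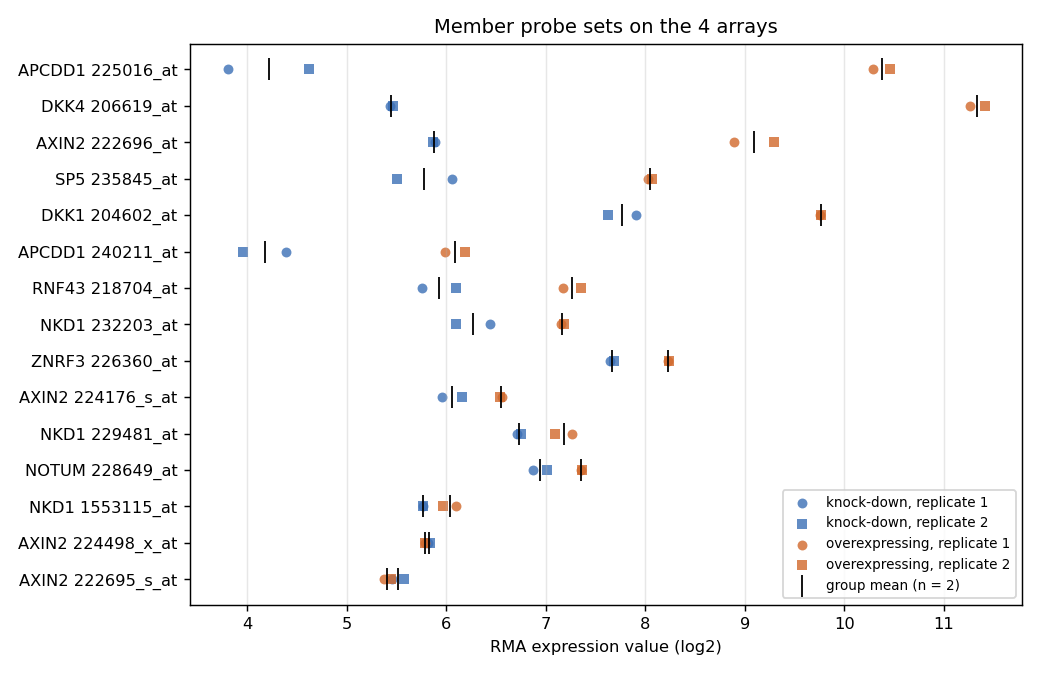
RMA values (log2, horizontal axis) of the 15 probe sets on each of the 4 arrays, with knock-down arrays in blue, overexpressing arrays in orange, circles for replicate 1, squares for replicate 2 and a black bar at each group mean of 2 arrays. The orange points lie right of the blue ones for 13 probe sets and left of them for 2 of AXIN2, and the widest pair of knock-down points is that of APCDD1 225016_at, at 3.80 and 4.62.

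APCDD1 is a membrane glycoprotein that binds Wnt and LRP5 and blocks the receptor. Its probe set 225016_at read 3.80 and 4.62 on the knock-down arrays against 10.29 and 10.46 on the overexpressing arrays. The groups stood 5.67 apart at their nearest points, and the knock-down arrays differed from each other by 0.82, a gap exceeded by 0.0769% of all probe sets. The difference of 6.16 ± 0.26 (SE, n = 2 per group) was the first in rank of all 54613 and corresponds to a 71.6-fold rise (adjusted p = 4.45e-04). The weaker probe set 240211_at read 4.39 and 3.96 against 5.99 and 6.19. It rose by 1.92 ± 0.16, or 3.77-fold (adjusted p = 0.0047). Both probe sets of APCDD1 were higher in both overexpressing arrays, but their confidence intervals (5.53 to 6.79 and 1.52 to 2.31) do not meet, and knock-down replicate 2 was the higher of its group on the first and the lower on the second. Averaged over both probe sets, APCDD1 rose by 4.04. The call on 225016_at was lost without overexpressing replicate 1 (adjusted p = 0.085) or 2 (0.098), and that on 240211_at whichever array was left out (0.075 to 0.226).

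DKK4 and DKK1 are secreted Dickkopf proteins that bind LRP5 and LRP6 and keep them from forming a receptor complex with Wnt. DKK4 read 5.43 and 5.46 on the knock-down arrays against 11.26 and 11.41 on the overexpressing arrays. Its replicates differed by 0.03 and 0.15, far less than the 5.80 between the groups. The rise of 5.89 ± 0.09 (SE, n = 2 per group), or 59.3-fold, came second among all probe sets (adjusted p = 5.44e-05). DKK4 was the only member called in each of the 4 fits without 1 array (adjusted p at most 0.045), and 0.0238% of all probe sets (13) rose in each of them. DKK1 read 7.91 and 7.62 against 9.76 and 9.77, so that it was well above the array medians already in the knock-down arrays. It rose by 1.998 ± 0.115, or 3.99-fold (adjusted p = 0.0012). The intervals of DKK4 (5.67 to 6.11) and DKK1 (1.72 to 2.28) do not meet. DKK1 lost the call without overexpressing replicate 1 (adjusted p = 0.124), overexpressing replicate 2 (0.138) or knock-down replicate 2 (0.058), with differences of at least 1.85.

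NOTUM is a secreted carboxylesterase that removes the lipid Wnt needs to bind Frizzled. It read 6.87 and 7.01 on the knock-down arrays against 7.35 and 7.37 on the overexpressing arrays. The overexpressing arrays were both higher, by 0.33 at the nearest points, which is more than the 0.14 between the knock-down arrays. The difference of 0.42 ± 0.09 (95% confidence interval 0.20 to 0.63) did not pass (adjusted p = 0.102). It passed narrowly in limma when each gene was represented by its brightest probe set alone (adjusted p = 0.049). That fit was run anew on 19775 rather than 54613 values, so the shared spread changed as well as the adjustment. The unadjusted p of NOTUM in limma was 0.0036 in the main fit and 0.0023 in this one.

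RNF43 and ZNRF3 are related transmembrane ubiquitin ligases that remove Frizzled receptors from the cell surface, and R-spondins with their LGR receptors hold them in check. RNF43 read 5.76 and 6.10 on the knock-down arrays against 7.17 and 7.35 on the overexpressing arrays. ZNRF3 read 7.65 and 7.69 against 8.23 and 8.24. Both ligases were higher in both overexpressing arrays, RNF43 with the wider replicates and ZNRF3 with replicates that differed by at most 0.04. RNF43 rose by 1.33 ± 0.14 (SE, n = 2 per group), or 2.52-fold (adjusted p = 0.010). ZNRF3 rose by 0.56 ± 0.08, or 1.48-fold (adjusted p = 0.030). Their intervals, 0.996 to 1.66 and 0.37 to 0.76, do not meet. Neither call held when any 1 array was left out (adjusted p 0.112 to 0.273 for RNF43 and 0.246 to 0.342 for ZNRF3), although the differences stayed between 1.16 and 1.499 and between 0.54 and 0.58.

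Inside the cell, AXIN2 is the inducible counterpart of AXIN1, the scaffold on which the destruction complex assembles. Its probe set 222696_at read 5.89 and 5.87 on the knock-down arrays against 8.89 and 9.29 on the overexpressing arrays. The groups stood 3.002 apart, while the overexpressing arrays differed from each other by 0.41, a gap exceeded by 2.92% of all probe sets. This probe set rose by 3.21 ± 0.14 (SE, n = 2 per group), or 9.27-fold (adjusted p = 5.8e-04). The call was lost without knock-down replicate 1 (adjusted p = 0.077), knock-down replicate 2 (0.076) or overexpressing replicate 2 (0.051), with differences of at least 3.01. The other AXIN2 probe sets did not pass. Their suffixes _s_at and _x_at mark sets whose probes match more than 1 transcript or may cross-hybridise. The set 224176_s_at read 5.95 and 6.16 against 6.56 and 6.54, a difference of 0.49 (adjusted p = 0.087). The set 224498_x_at read 5.81 and 5.84 against 5.79 in both overexpressing arrays, a difference of -0.04 with an interval of -0.23 to 0.16. The set 222695_s_at read 5.45 and 5.58 against 5.37 and 5.45, a difference of -0.11 with an interval of -0.33 to 0.11. AXIN2 is therefore carried by 1 of its 4 probe sets, and the mean over all 4 differed by 0.89 (adjusted p = 0.0014). Which parts of the transcript the probe sets cover was not analysed here.

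NKD1, the Naked cuticle protein, binds Dishevelled and dampens its signal. Its probe set 232203_at read 6.44 and 6.09 on the knock-down arrays against 7.15 and 7.18 on the overexpressing arrays, and it rose by 0.90 ± 0.13 (SE, n = 2 per group), or 1.86-fold (adjusted p = 0.032). The call was lost whichever array was left out (adjusted p 0.131 to 0.376). The brighter set 229481_at read 6.71 and 6.75 against 7.27 and 7.09, a difference of 0.45 (adjusted p = 0.098, and 0.047 with 1 probe set per gene). The set 1553115_at read 5.76 and 5.77 against 6.10 and 5.97, a difference of 0.27 (adjusted p = 0.243). All 3 sets were higher in both overexpressing arrays, and the mean over them rose by 0.54 (adjusted p = 0.012).

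SP5 is a zinc finger factor of the SP family whose gene is a direct Wnt target. It read 6.05 and 5.50 on the knock-down arrays against 8.03 and 8.07 on the overexpressing arrays. The knock-down arrays differed by 0.55, a gap exceeded by 0.776% of all probe sets, and the overexpressing arrays by 0.04. SP5 rose by 2.27 ± 0.18 (SE, n = 2 per group), or 4.82-fold (adjusted p = 0.0039). Its call was lost without overexpressing replicate 1 (adjusted p = 0.193), overexpressing replicate 2 (0.227) or knock-down replicate 2 (0.056), with differences of at least 1.99.

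The members thus fell in an order of difference with APCDD1 and DKK4 at the top, whose 95% confidence intervals overlap each other and no other member. AXIN2 222696_at came next, with an interval of 2.86 to 3.56 that meets no other. SP5 (1.83 to 2.71), DKK1 and the weaker APCDD1 probe set overlapped, and the interval of RNF43 met that of the weaker APCDD1 set above it and that of NKD1 232203_at below it. Below these, ZNRF3, NOTUM, the probe sets of NKD1 and AXIN2 224176_s_at formed a group between 0.27 and 0.90. Of the 6 probe sets that did not pass, 4 had an interval wholly above 0, and the other 2 were of AXIN2. These intervals are not adjusted for the number of probe sets. One that excludes 0 on either side amounts to an unadjusted p under 0.05 in limma, which 7995 of all 54613 probe sets had.

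**Figure D2:**
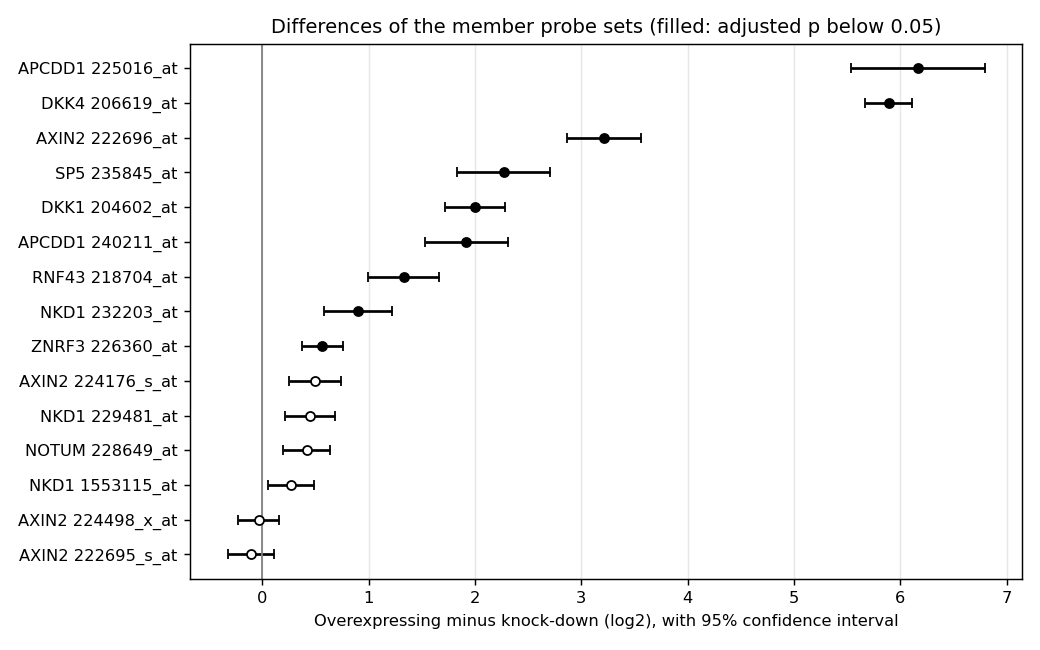
Difference of each of the 15 probe sets (overexpressing minus knock-down, log2, horizontal axis) with its 95% confidence interval from limma; filled points had an adjusted p below 0.05. The 9 filled points run from 0.56 for ZNRF3 to 6.16 for APCDD1 225016_at, and the intervals of 2 AXIN2 probe sets include 0.

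**Figure D3:**
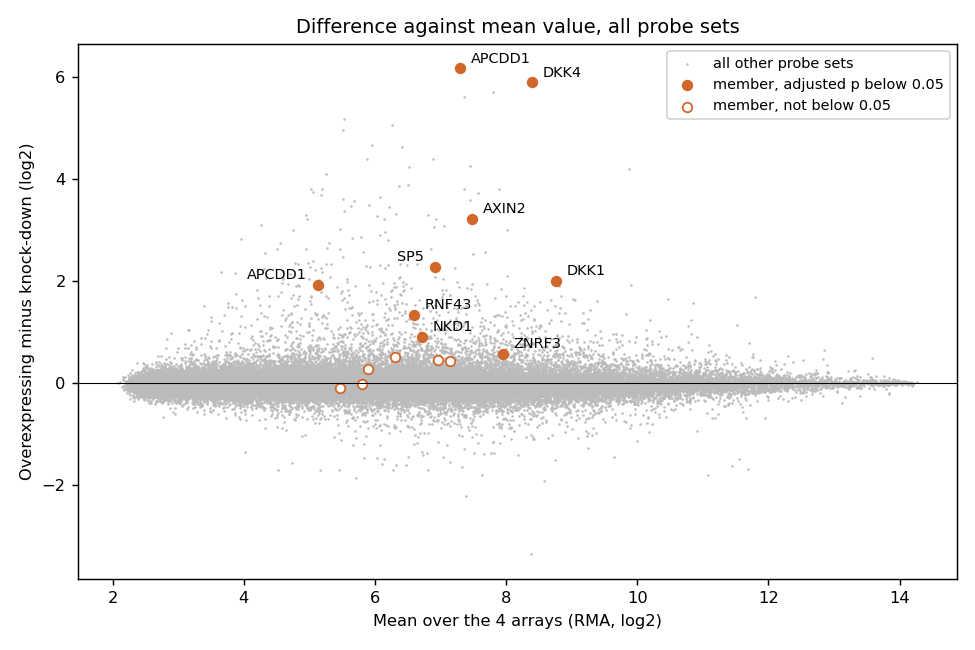
Difference (overexpressing minus knock-down, log2, vertical axis) against the mean over the 4 arrays (log2, horizontal axis) for all 54613 probe sets in grey, with the 15 members in orange, filled where the adjusted p was below 0.05. APCDD1 and DKK4 are the highest points of the plot, at 6.16 and 5.89, and the open members lie near 0 within the grey cloud.

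Close relatives of the members were compared on 1 probe set per gene, the one with the highest mean over all 4 arrays. This choice can favour a probe set that is high in 1 group. For AXIN2 it took 222696_at (knock-down mean 5.88) over 224176_s_at (knock-down mean 6.06), whose difference was 0.49. Of 13 measured relatives none passed in limma, and 2 had an unadjusted p under 0.05, beside 3688 of all 19775 genes; 2.74% of all genes rose and 2.03% fell. AXIN1, which shares its role with AXIN2, read 8.73 and 8.78 on the knock-down arrays against 8.68 and 8.70 on the overexpressing arrays, a difference of -0.07 (interval -0.24 to 0.11). NKD2 read 7.58 in both knock-down arrays against 7.65 and 7.68, a difference of 0.09 (-0.09 to 0.26). APCDD1L, the paralog of APCDD1, differed by -0.14 (-0.34 to 0.07) and DKK2 by -0.20 (-0.54 to 0.14). DKK3, a Dickkopf relative, read 4.42 and 4.21 against 4.76 and 4.81, and its difference of 0.47 narrowly missed the threshold (adjusted p = 0.051). Among the SP factors SP1 and SP3 differed by 0.02 and 0.03, and the median over the relatives was 0.02, against 1.998 over the brightest probe sets of the 9 members and -0.02 over all genes. In this fit all 9 members passed, AXIN2 on a probe set that was chosen partly by its high overexpressing values. The differences between a member and its relative were not tested.

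Other antagonists of the pathway, a list that shares APC, AXIN1 and several relatives with the other lists, numbered 37. Of these, 2 rose (5.41%), 1 fell (2.70%) and 34 did not pass, with a median of 0.05, and these shares lie near the 2.74% and 2.03% of all genes. DACT2, of the Dapper family of signalling inhibitors, read 6.35 and 6.26 against 7.59 and 7.69, a 2.52-fold rise. It passed in limma over genes (adjusted p = 5.6e-04) and over all probe sets (0.0020). CXXC5, a CXXC zinc finger protein that binds Dishevelled, rose 2.47-fold (7.49 and 7.88 against 8.85 and 9.12, adjusted p = 0.0071). TRABD2A, a membrane protease that cleaves Wnt, fell by 0.73 on the log2 scale (7.69 and 7.62 against 6.83 and 7.01, adjusted p = 0.0097), but its second probe set differed by -0.002. CXXC5 lost the call without knock-down replicate 1 (adjusted p = 0.075), overexpressing replicate 1 (0.088) or overexpressing replicate 2 (0.126), and TRABD2A whichever array was left out (0.064 to 0.135). Averaged over its probe sets, TRABD2A did not pass either (adjusted p = 0.062).

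The inhibitors among the members act on Wnt, its receptors and the core cascade. Of 22 core cascade genes, from Dishevelled to the TCF factors, none passed in limma and 4 (18.2%) had an unadjusted p under 0.05, against 18.6% of all genes, with differences between -0.33 and 0.43 and a median of -0.05. CTNNB1, encoding beta-catenin, read 11.45 and 11.53 against 11.64 and 11.67, a difference of 0.16 (interval -0.02 to 0.35), and the kinase gene CSNK1A1 differed by 0.02 (-0.17 to 0.21). Of 18 R-spondins and receptors, 2 rose and none fell, with a median of 0.05 (2.74% of all genes rose). These were RSPO3, an R-spondin that holds RNF43 and ZNRF3 in check (0.69, adjusted p = 0.030), and the Frizzled receptor FZD10 (0.58, adjusted p = 0.022). Both calls were lost whichever array was left out (adjusted p 0.092 to 0.226 for RSPO3 and 0.128 to 0.193 for FZD10), and neither passed when adjusted over all probe sets as the members were (0.066 and 0.053). LGR5, the R-spondin receptor and Wnt target, read 4.18 and 4.05 against 4.29 and 4.25 (difference 0.15, adjusted p = 0.41).

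Other Wnt target genes were split. Of 36 measured, 10 rose, 2 fell and 24 did not pass, or 27.8% and 5.56% against 2.74% and 2.03% of all genes, with a median of 0.06 against -0.02. ID2, an inhibitor of helix-loop-helix factors, read 4.39 and 4.73 against 10.31 and 10.01 and rose 48.5-fold (adjusted p = 2.33e-05). The crypt transcription factors SOX9 and ASCL2 rose 3.64-fold and 3.53-fold, and CCND1, encoding cyclin D1, rose 3.03-fold (8.65 and 8.52 against 10.22 and 10.15, adjusted p = 2.95e-04). These 4 also passed in limma when adjusted over all probe sets as the members were (adjusted p at most 0.0011). TRIB2, SNAI2, FGF20, BMP4, JUN and PLAUR completed the rises, and NRCAM and MET fell by 0.74 and 0.41. MYC, often named as a Wnt target in colorectal cancer, read 11.64 and 11.61 against 11.59 and 11.68, a difference of 0.01 (interval -0.18 to 0.20), with overlapping groups. The 10 rises dropped to 4 without overexpressing replicate 1, to 5 without overexpressing replicate 2, to 6 without knock-down replicate 2 and to 7 without knock-down replicate 1, and no fall was called without any 1 array. Averaged over their probe sets, JUN and MET did not pass in limma (adjusted p = 0.106 and 0.428). RUNX2 (0.88, adjusted p = 0.0014), FGF18 (0.35, 0.043) and TNFRSF19 (0.35, 0.042) then did, which gave 12 rises and 1 fall. Adjusted over all probe sets, MET (0.088) and PLAUR (0.050, just above the threshold) did not pass. Members and targets were chosen with results of these arrays known, so these counts are a description.

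**Figure D4:**
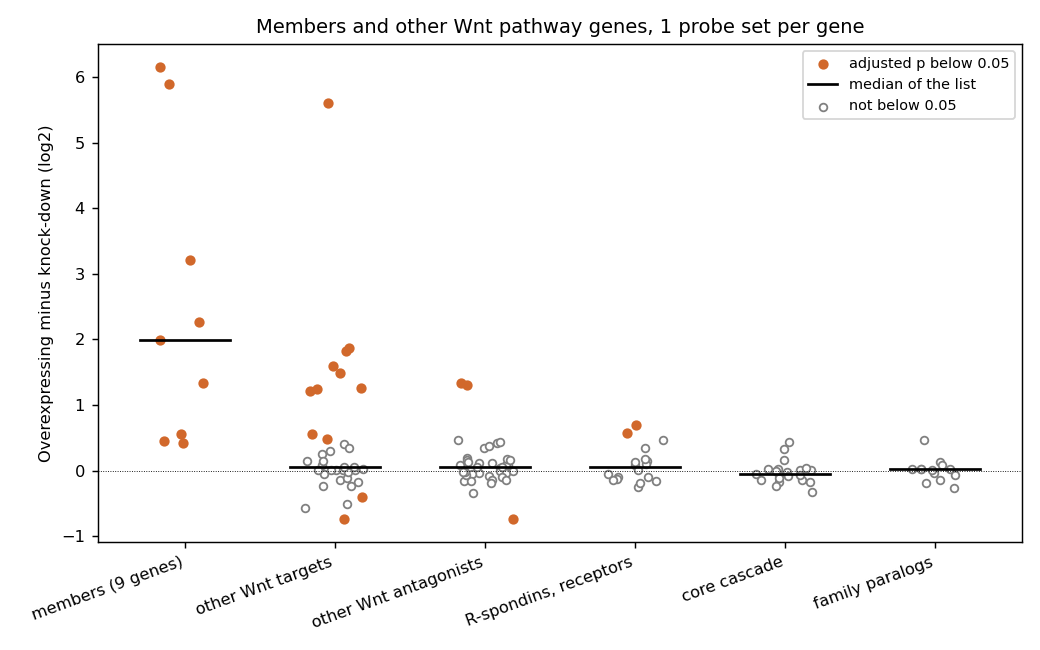
Difference per gene (overexpressing minus knock-down, log2, vertical axis) for the 9 members and 5 lists of other Wnt pathway genes, with 1 probe set per gene, points spread sideways for legibility, filled where the adjusted p was below 0.05 and a bar at each median. The median of the members lies at 1.998, while those of the lists lie between -0.05 and 0.06.

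For each of the 7 members whose brightest probe set passed, the non-member gene with the most similar values was sought. Other members were left out of this search. Similarity was measured by the Euclidean distance between 4 array values centred on their mean. The distance takes in both the group difference and the replicate spread. Among non-members, ID2 lay nearest to both APCDD1 (distance 0.74 on the log2 scale) and DKK4 (0.48). The heparan sulphatase gene SULF2 lay nearest to AXIN2 (0.15), reading 4.60 and 4.48 against 7.44 and 8.04, with overexpressing replicate 2 the higher as for AXIN2. The reductase gene CYB5R2 lay nearest to SP5 (0.14), and the gap junction gene GJB2 to DKK1 (0.12). The collagen gene COL15A1 lay nearest to RNF43 (0.06) and the kinase gene CDK8 to ZNRF3 (0.02). Of these 7 distances, those of APCDD1 and DKK4 were the largest. The distance is not scaled, and these 2 members had the largest rises of all probe sets, so it does not measure how distinct their pattern is.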

How the data were processed

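RNA of SW480 cells was measured on Affymetrix arrays, with 2 arrays per group, by the labels' titles. The deposited log2 values were made by the authors using affy's RMA, according to the submitters' processing notes and per the labels; the sources used here give no versions and no build. They were used as deposited. Probe sets were named from the platform annotation (41091 with 1 symbol, 1801 with several, 11721 with none); 41037 matched a RefSeq gene by identifier. The 62 control probe sets were left out.

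Groups were compared with limma 3.58.1 in R 4.3.3 (lmFit, eBayes, group as the only term, two-sided, Benjamini-Hochberg over 54613 probe sets, adjusted p of 0.05; 2 residual and 3.91 prior degrees of freedom). Lists used 1 probe set per gene (19775 genes), the one with the highest mean over all 4 arrays, also in the fits without 1 array. The procedure was tested on simulated data. Array values carry no counts, so the number of arrays limits precision.

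Members, lists and tests were chosen with earlier results of these data known. Named genes were all members, the nearest non-member gene of each member whose brightest probe set passed, and LGR5, MYC, AXIN1 and NKD2. From each list came up to 4 with the largest difference past the threshold (otherwise the 2 with the highest mean). Genes that complete a count, other relatives and markers were named after their values were seen. Of the listed genes 8 had no probe set of their own symbol. Alternatives were a replicate block, an intensity trend, 2 scalings, a filter on dim probe sets, averaging the probe sets of a gene, other thresholds and leaving out each array. A planned comparison of protein sequences was not run, as no protein table was used here.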

Additional observations from a re-analysis of the deposited data

How the results depend on the processing

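The 15 probe sets kept the sign of their difference under the alternatives that gave them a value. These were 11 for 9 of them and 8 or 9 for the other 6, and DKK4 kept its call in its 11. The block, the trend, the filter and the choice of 1 probe set per gene leave the difference itself unchanged. As the groups did not overlap for any of the 15, leaving out 1 array could not reverse a sign either. Only the 2 scalings and the averaging could have changed a sign. With 1 array of a group left out, the spread rests on the other group and calls were few. The count of probe sets past the threshold (1078) was then 15 to 61, that of members higher (9) 1 to 4, that of member genes (8) 1 to 4, and that of genes with 1 probe set each (944) 172 to 237. Of the lists, targets higher (10) gave 4 to 7 and lower (2) 0, antagonists higher (2) 1 to 2 and lower (1) 0, and R-spondins and receptors higher (2) 0.

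The replicate numbers occur in both groups, but no label says that they mark a shared culture or day, and same-numbered arrays deviated together only weakly (correlation 0.15 over probe sets). With the replicate block, 443 probe sets and 520 genes passed. Member probe sets higher numbered 6: ZNRF3 (adjusted p = 0.096), NKD1 232203_at (0.106) and APCDD1 240211_at (0.060) did not pass. Antagonists lower were then 0 and R-spondins and receptors higher 1.

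An intensity trend with robust moderation gave 2437 probe sets and 1822 genes, 12 member probe sets (AXIN2 224176_s_at, NOTUM and NKD1 229481_at added), 4 targets lower, 6 antagonists higher, 2 core cascade genes higher and 1 relative higher. Averaging the probe sets of each gene gave 1 target lower, 0 antagonists lower and 1 core cascade gene higher. An adjusted p of 0.01 gave 386 probe sets and 5 member genes, and a difference of at least 1 gave 451 probe sets. A filter on dim probe sets gave 11 member probe sets. It kept DKK4 and the stronger APCDD1 probe set, whose knock-down means of 5.45 and 4.21 lay below the array medians. Their overexpressing values carried them through, so the filter does not test their low starting values. The weaker APCDD1 probe set, called in the main fit, was removed by it. Of all calls 68.9% were rises, and 64.3% to 66.9% under the 2 scalings. The causes were not tested. Low starting values without a detection call limit the folds of APCDD1 and DKK4. The same holds for the rises of ID2 and EPCAM, with knock-down means of 4.56 and 3.73. The knock-down means of SP5 (5.78), AXIN2 222696_at (5.88) and RNF43 (5.93) lay at or little above the array medians, so this limit may touch them too.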
